A study of Mus musculus with 4 samples.

Results

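The regions described here were more accessible in both Flicr KO libraries than in both Flicr WT libraries by a fixed margin. To choose them, each library's RPKM (the read number scaled to region length and to all reads of the library) was divided by that library's median over all 84476 regions. An autosomal region was a member when its mean deposited RPKM over the 4 libraries was 3 or more and its lower scaled KO value was at least 1.5 times its higher scaled WT value. Of 82264 autosomal regions, 31485 reached the mean of 3, and 578 of these were members, or 1.84%. They were chosen by the KO and WT values themselves, so those values are given below as a description, and no test on this contrast supports them.

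The cells were regulatory T cells from male mice of the NOD strain, which develops autoimmune diabetes, and their open chromatin was measured by ATAC-seq. The mice were 8 to 10 weeks old and fell into 2 genotypes, Flicr WT with the gene intact and Flicr KO with it knocked out, each with 2 libraries. From spleen and lymph nodes, 50000 DAPI-negative CD4+ TCRβ+ cells were sorted per library, with CD25-high staining in the top 50%. The sort was a double one by the sample labels and a single one by the series design. How the Flicr allele was made, and whether replicates came from separate mice, is not stated in the labels, so the spread between replicates may be technical.

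ATAC-seq relies on a transposase that cuts and tags DNA where chromatin is open, and the reads in a region measure that openness. Regulatory T cells restrain other immune cells and are defined by the transcription factor Foxp3. Flicr is a long noncoding RNA gene next to Foxp3 on chromosome X. Open regions are mostly promoters and enhancers, and a wide region usually holds more reads than a narrow one of the same RPKM. The files are on the mm9 build, for which no genome or annotation was used here. Regions are therefore given by position, no gene is named for any of them, no sequence is printed, and the cell type could not be checked against its marker genes.

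Depth differed between libraries. Flicr WT replicates 1 and 2 held 7088062 and 10079117 reads in the regions, and Flicr KO replicates 1 and 2 held 14656510 and 6637861. Flicr WT replicate 1 had 24.2% of its reads in regions, the lowest share, and the others 31.1% to 35.1%. The median region had 1.92 RPKM in Flicr WT replicate 1 and 2.46 to 2.54 RPKM in the other libraries, which is the difference that the scaling removed.

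Members were of ordinary level in KO and low in WT. Their median deposited value was 6.12 RPKM in Flicr KO replicate 1 and 6.19 RPKM in Flicr KO replicate 2, against 2.15 RPKM in Flicr WT replicate 1 and 2.96 RPKM in Flicr WT replicate 2. On the scaled values, where 1 is the library's median region, the members' medians were 2.41 and 2.51 in KO and 1.12 and 1.20 in WT. The 31485 regions that could pass had scaled medians of 2.59 and 2.60 in KO and 2.38 and 2.39 in WT. Members thus sat near the other regions in KO and below them in WT, on the same values that the rule used to choose them. The floor on the mean counts the KO values too: 372 members, or 64.4%, had a WT mean under 3 RPKM and reached it through KO, as against 11.1% of the regions that could pass. In WT, 216 members in replicate 1 and 174 in replicate 2 lay under the library's median region, and 0 members did so in either KO library.

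**Figure D1:**
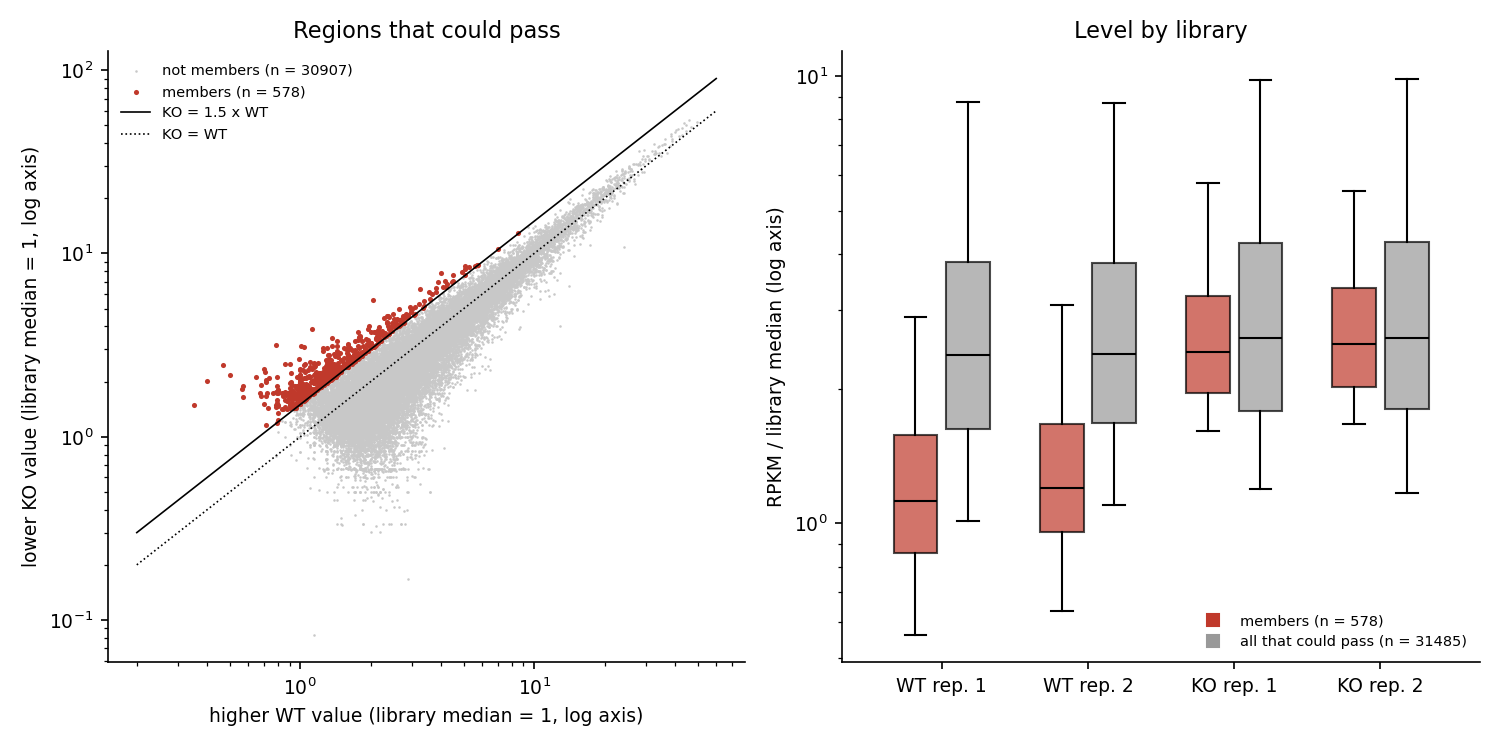
Left, each region that could pass by its higher scaled WT value and its lower scaled KO value (log axes, library median = 1), with the 578 members in red above the line of KO at 1.5 times WT. Right, scaled RPKM by library (box, quartiles with the median; whiskers, 5th to 95th percentile; log axis): the members' medians are 2.41 and 2.51 in KO, close to those of all 31485 regions, and 1.12 and 1.20 in WT, below them.

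The margin was mostly small. The median ratio of the lower KO to the higher WT value was 1.67, and 190 members lay between 1.5 and 1.6. A ratio of 2 or more was reached by 79 members and a ratio of 3 or more by 12. The log2 ratio of the mean scaled KO to the mean scaled WT value had a median of 1.07 over the members, from 0.63 to 2.83, beside a median of 0.13 over all regions that could pass.

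The genotypes do not overlap in any member, by the rule, and the replicates of a genotype could still differ. The KO libraries differed by a median of 1.14-fold over the members and 1.18-fold over all regions that could pass. For the WT libraries these values were 1.20-fold and 1.21-fold. The KO libraries were within 1.5-fold of each other in 91.5% of the members and 83.7% of the regions that could pass, and the WT libraries in 78.9% and 80.1%. The rule used the lower KO and the higher WT value, so it bears on replicate agreement too. Nothing is read from these folds and shares. The higher WT library was replicate 2 in 58.5% of the members and 51.3% of the regions that could pass. The higher KO library was replicate 1 in 43.9% and 49.5%, so in most members it was replicate 2, the shallowest library.

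The reads behind a member were few. The median member had 24 and 39 reads in Flicr WT replicates 1 and 2, and 101 and 48 reads in Flicr KO replicates 1 and 2. For all regions that could pass, these medians were 91, 132, 190 and 86. Fewer than 10 reads were found in Flicr WT replicate 1 in 37 members and in Flicr WT replicate 2 in 4. Between 78.8% and 85.5% of the read numbers of a library were even, as if both mates of a fragment were counted, so the molecules behind them are fewer still.

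The same rule was run in the opposite direction and with the 4 libraries arranged in the 2 other ways, each in both directions. With WT over KO, 107 regions passed, or 0.34% of the regions that could. Both replicate 1 libraries over both replicate 2 libraries gave 167 regions (0.53%), and the reverse 178 (0.565%). Flicr KO replicate 1 with Flicr WT replicate 2, the deepest pair, over the other two gave 264 (0.838%), and the reverse 179 (0.569%). The 578 regions of KO over WT exceeded the count in each of these 5 directions. These are counts by a rule with 1 value per arrangement, and carry no p. With 1 library left out the KO over WT count was 1688 without Flicr KO replicate 1, 1525 without Flicr KO replicate 2, 2255 without Flicr WT replicate 1 and 2873 without Flicr WT replicate 2. Fewer values then had to meet the ratio, and the mean of the remaining libraries was held to the same floor, so that 431 of the 578 members still passed with 1 KO library left out, whichever it was, and all 578 with 1 WT library left out.

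With the floor of 3 on the mean, KO over WT also had the highest count at other ratios. At 2 or more, 79 regions passed for KO over WT, 8 for WT over KO and 15 to 40 in the other 4 directions. At 3 or more, 12 passed for KO over WT, 0 for WT over KO, and 1 in each of the other 4. With no margin, both KO values exceeded both WT values in 10086 regions, or 32.0%, and both WT values exceeded both KO values in 2750, or 8.73%. In the other 4 directions these shares were 14.3% to 15.4%. The lead at higher ratios depended on the floor. At a mean of 1 instead of 3, KO over WT gave 1094 regions at a ratio of 2 and 355 at 3. The highest of the other 4 directions then gave 1166 and 412.

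**Figure D2:**
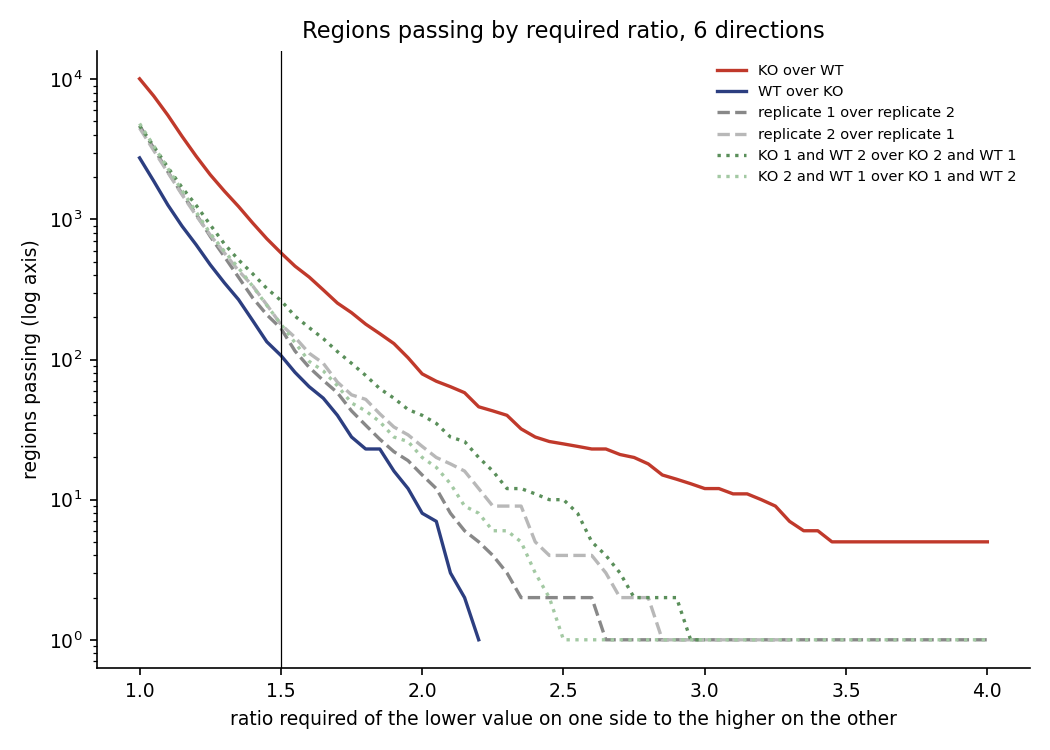
Number of regions passing (log axis) against the ratio required between the lower value of one pair of libraries and the higher value of the other pair, for the 6 directions, with a vertical line at 1.5. With the floor of 3 on the mean, the KO over WT curve lies above the other 5 throughout. It is at 578 regions against 107 to 264 at a ratio of 1.5 and at 12 against 0 or 1 at a ratio of 3.

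The size of this excess depended on the scaling. After division by the median over all regions, the 31485 regions that could pass still leaned toward KO: 69.0% had a log2 ratio above 0. The lean rose with level, from a median of 0.08 at 3 to 4 RPKM to 0.18 at 15 RPKM or more, and was −0.01 in autosomal regions under the mean of 3. When the libraries were instead divided by their share of reads in regions (total scaling), the median log2 ratio of the regions that could pass was 0.01. Then 327 regions passed for KO over WT, 228 for WT over KO and 161 to 261 in the other directions. Quantile normalization gave 371 for KO over WT, 187 for WT over KO and 169 to 267 in the others, and cyclic loess gave 345, 206 and 169 to 261. Dividing by the median of the regions that could pass gave 328, 231 and 169 to 256. KO over WT had the highest count in each of these scalings, by a smaller margin than after division by the library median. On the RPKM as deposited, 1175 passed for KO over WT, 27 for WT over KO and 40 to 580 in the other directions.

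**Figure D3:**
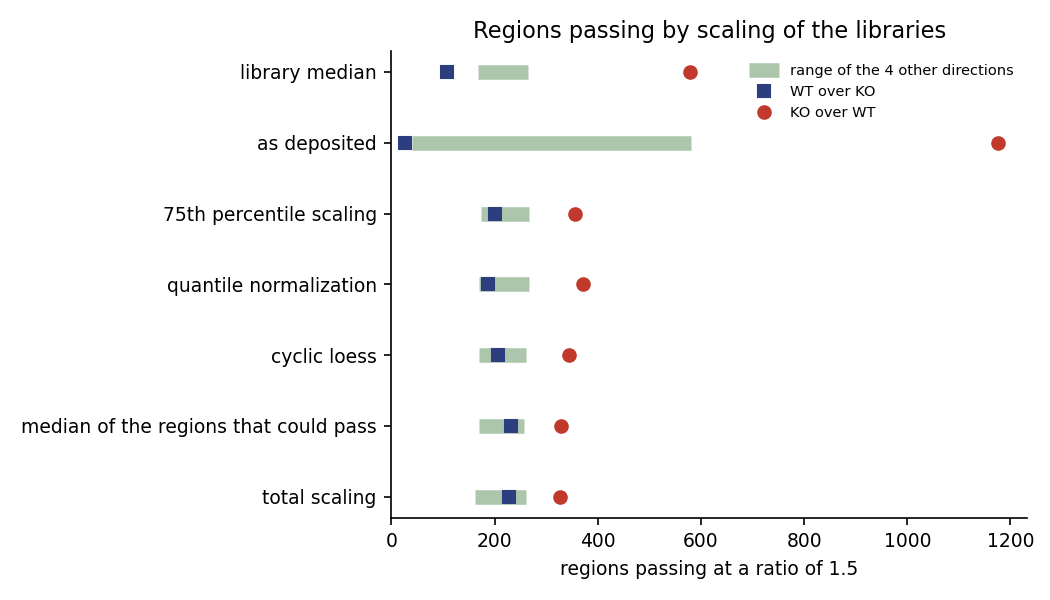
Number of regions passing at a ratio of 1.5 under 7 ways to scale the libraries, for KO over WT (red circles), WT over KO (blue squares) and the range of the other 4 directions (green bars). The red circle is rightmost in every row, at 578 with the library median and at 327 to 371 with the 5 scalings in the lower rows, where the green bars end at 256 to 267.

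The members of highest ratio also depended on the processing. Of the 79 members at a ratio of 2 or more, 50 stayed at 2 or more with total scaling, where 23 regions passed for WT over KO and 14 to 41 in the other directions. Of the 12 at 3 or more, 9 stayed at 3 or more, against 0 for WT over KO and 0 or 1 in the others. With 1 RPKM added after scaling, which pulls ratios of low regions toward 1, 27 of the 79 stayed at 2 or more and 1 of the 12 at 3 or more.

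The 10 members of highest ratio were narrow regions, 251 to 445 bp wide, low in WT. The first, on chromosome 8 at 70864508 to 70864883, had 0.547 and 1.15 RPKM in Flicr WT replicates 1 and 2, on 6 and 14 reads. It had 6.25 and 6.83 RPKM in Flicr KO replicates 1 and 2, on 98 and 50 reads. The lower KO value was 5.27 times the higher WT value after scaling, and the limma log2 fold change was 1.93 (SE 0.31). Both KO libraries were high and both WT libraries low, and Flicr WT replicate 1 was the lowest.

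On chromosome 12, the region at 35359162 to 35359474 had 0.439 and 0.989 RPKM in WT replicates 1 and 2, and 5.14 and 6.08 RPKM in KO replicates 1 and 2 (ratio 5.04). A second member of this chromosome, at 8851608 to 8851993, had 1.24 and 0.962 RPKM in WT and 5.40 and 7.85 RPKM in KO (ratio 3.28). On chromosome 6, the region at 38747024 to 38747274 had 1.51 and 0.987 RPKM in WT and 8.04 and 8.20 RPKM in KO (ratio 4.02). In the last 2 regions Flicr WT replicate 1 was the higher WT library, and in the first it was the lower.

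The region of chromosome 15 at 34169337 to 34169587 had 0.547 and 1.23 RPKM in WT, on 4 and 10 reads, and 5.74 and 5.33 RPKM in KO, on 60 and 26 reads (ratio 4.33). The region of chromosome 4 at 34655955 to 34656205 had 0.547 and 0.864 RPKM in WT, on 4 and 7 reads, and 7.65 and 3.69 RPKM in KO, on 80 and 18 reads (ratio 4.28). The KO libraries were close in the first, at 5.53 ± 0.291 RPKM (SD, n = 2), and apart in the second, at 5.67 ± 2.80 RPKM (SD, n = 2). On chromosome 8, the region at 81423845 to 81424157 stood alone, 74577 bp from the next region, with 1.54 and 2.77 RPKM in WT and 10.4 and 9.53 RPKM in KO (ratio 3.45, log2 fold change 1.68, SE 0.24).

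The remaining 3 of the 10 had ratios of 3.24 to 3.33. The region of chromosome 18 at 88943567 to 88943817 had 0.547 and 1.73 RPKM in WT and 5.93 and 7.17 RPKM in KO. The region of chromosome 10 at 44048204 to 44048454 had 1.09 and 0.740 RPKM in WT and 4.78 and 6.15 RPKM in KO. The region of chromosome 3 at 127644565 to 127645009 had 1.08 and 1.251 RPKM in WT and 4.63 and 6.002 RPKM in KO. In each of these 3, Flicr KO replicate 2 was the higher KO library.

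The 5 most accessible members moved by less. The region of chromosome 2 at 49472217 to 49472915, with the highest mean, had 16.3 and 20.2 RPKM in WT replicates 1 and 2 and 41.2 and 31.7 RPKM in KO replicates 1 and 2. It rested on 333 and 458 reads in WT and 1202 and 432 in KO, and its limma log2 fold change was 0.76 (SE 0.13). Its lower KO value was 1.51 times its higher WT value, just past the threshold, and the other 4 had ratios of 1.51 to 1.61. With total scaling the ratio of each of the 5 fell below 1.5. Their limma log2 fold changes were then 0.53 to 0.64, against 0.65 to 0.76 with the library median. On chromosome 10, the region at 110327672 to 110328747 had 11.6 and 17.2 RPKM in WT and 27.9 and 26.0 RPKM in KO. Also on chromosome 10, the region at 9540942 to 9541693 had 10.9 and 13.4 RPKM in WT and 22.0 and 22.9 RPKM in KO, and that at 74868501 to 74869121 had 9.82 and 12.9 RPKM in WT and 21.4 and 22.6 RPKM in KO. These well-covered regions had standard errors of 0.13 to 0.15 on the log2 scale, against 0.24 to 0.36 for the 10 of highest ratio. Most of this contrast came with limma's trend and robust options: without them the standard errors were 0.236 to 0.253 and 0.255 to 0.344.

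Values at the edges of the rule show how close the choice was. The members just inside the ratio of 1.5 were the region of chromosome 13 at 12436662 to 12437172, with 3.96 and 4.96 RPKM in WT and 8.30 and 7.64 RPKM in KO, and that of chromosome 2 at 26819750 to 26820352, with 3.07 and 3.49 RPKM in WT and 6.12 and 5.96 RPKM in KO. Just outside lay the region of chromosome 18 at 65181715 to 65181965, with 1.09 and 2.47 RPKM in WT and 5.93 and 3.69 RPKM in KO. The next outside was on chromosome 14 at 10226025 to 10226275, with 1.78 and 2.47 RPKM in WT and 5.55 and 3.69 RPKM in KO. Both of these rested on 18 reads in Flicr KO replicate 2 and 20 in Flicr WT replicate 2. The members of lowest mean, at 3.002 and 3.005 RPKM, were on chromosome 5 at 119036068 to 119036318, with 0.821 and 2.22 RPKM in WT and 3.64 and 5.33 RPKM in KO, and on chromosome 18 at 10293213 to 10293463, with 1.92 and 1.23 RPKM in WT and 4.98 and 3.90 RPKM in KO. Below the mean of 3, a further 2788 autosomal regions had a ratio of 1.5 or more. With no floor on the mean, KO over WT gave 3366 regions, WT over KO 3004, and the highest of the other directions 3387.

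The difference between genotypes was also fitted over all regions with limma on log2(scaled RPKM + 1), which pools the spread over regions. With 2 libraries against 2, limma called 0 of 80254 regions higher (0.0%) and 0 lower (0.0%) at a Benjamini-Hochberg adjusted p under 0.05. At an unadjusted p under 0.05, 4245 were higher (5.29%) and 1606 lower (2.0%). For the members the limma adjusted p ran from 0.513 to 0.741, and 562 of 578 had an unadjusted p under 0.05. The rule used this same contrast, so nothing is read from that number. The median limma log2 fold change was 0.84 over the members, from 0.49 to 1.95, with a median SE of 0.26. On the RPKM as deposited, limma called 15 regions higher (0.0187%), 12 of them members. Limma voom was run on read numbers worked out from the RPKM, scaled to the reads in the tested regions. It used neither the median scaling nor the trend and robust options. It called 20 higher (0.0249%), 7 of them members, and 12 lower (0.015%), 0 of them members. The count of 0 held with 1 KO library left out, whichever it was, and became 34 higher without Flicr WT replicate 1, and 262 higher and 9 lower without Flicr WT replicate 2, where 1 WT library was set against 2 KO libraries.

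Width was not part of the rule, but reads, and so the error of a value, go with it. Members were 251 to 2246 bp wide with a median of 377 bp (95% interval of the median 348 to 381), and the regions that could pass had a median of 644 bp (637 to 654). Such intervals treat regions as separate draws and do not measure the spread between libraries. The narrowest width in reach, 251 bp, was held by 114 members, or 19.7%, and by 7.21% of the regions that could pass. Only 28 members, or 4.84%, were 1000 bp or wider, against 31.2% of the regions that could pass.

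Regions passing in the other directions were narrow as well. Their median widths were 314 to 324 bp, below the 377 bp of the members, and the 95% intervals of these medians reached from 313 to 380 bp. At 251 bp, 5.02% of the regions that could pass were members, and 1.45% to 4.097% passed in the other 5 directions. At 400 to 599 bp these shares were 2.19% and 0.459% to 0.830%, and at 1000 to 1999 bp 0.366% and 0.0271% to 0.0814%. The share passing thus fell with width in KO over WT and in the others alike, and KO over WT stayed highest in each class under 2000 bp. At 2000 bp or more, 1 region was a member and 1 passed for replicate 1 over replicate 2.

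**Figure D4:**
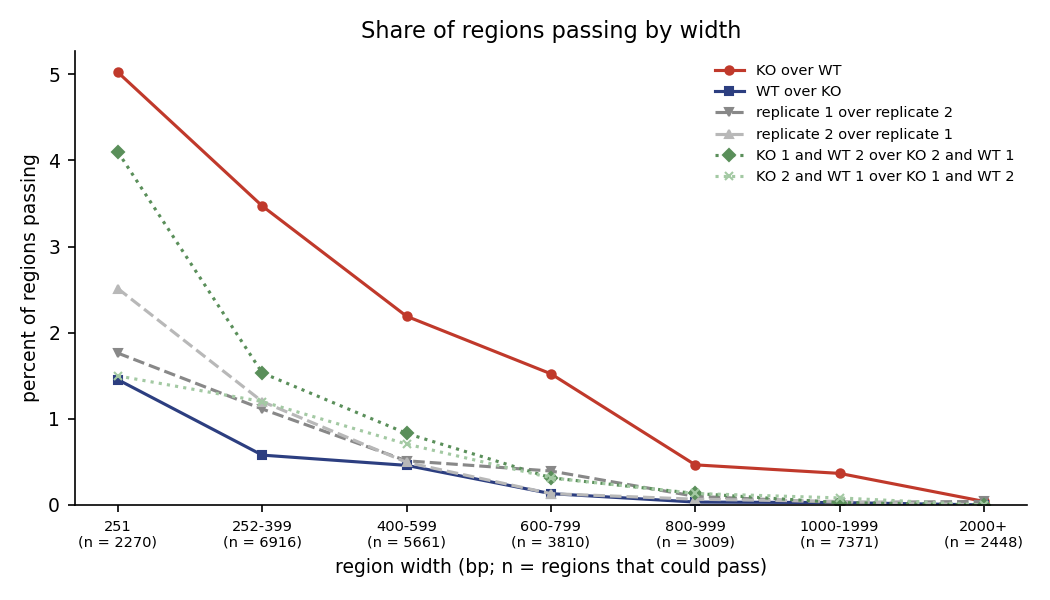
Percent of the regions that could pass that did so, by region width, for the 6 directions. KO over WT falls from 5.02% at 251 bp to 0.0408% at 2000 bp or more and lies above the other 5 up to 1999 bp.

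The 3 widest members held more reads. The widest, on chromosome 12 at 118791343 to 118793588, had 2.33 and 3.02 RPKM in WT and 5.67 and 4.93 RPKM in KO, on 153 and 220 reads in WT and 532 and 216 in KO. The other two lay on chromosome 2. That at 59920225 to 59921764 had 2.73 and 3.87 RPKM in WT and 6.14 and 5.99 RPKM in KO, and that at 68182912 to 68184336 had 3.60 and 5.20 RPKM in WT and 8.82 and 8.74 RPKM in KO. With total scaling only the region at 68182912 to 68184336 kept a ratio above the threshold.

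Level followed the same course. Members had a median mean RPKM of 4.30, up to 27.4, against 5.77 in the regions that could pass and 3.73 to 3.87 in the other 5 directions. From 3 to 4 RPKM, 3.20% of the regions that could pass were members and 0.925% to 2.01% passed in the other directions. From 10 to 15 RPKM, 0.521% were members (19 regions), and 0% to 0.0548% passed in the others, at most 2 regions. At 15 RPKM or more, 10 of 3448 regions were members (0.290%) and 0 to 2 passed in the others. By reads, 71 members held 400 to 799 reads summed over the libraries, where 2 to 11 regions passed in the other directions.

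Members lay on all 19 autosomes. The share of regions that could pass that were members ran from 1.05% on chromosome 19 (10 of 949) to 2.30% on chromosome 5 (41 of 1779), and the most members, 55 of 2533, were on chromosome 2. With the library median, KO over WT gave the highest count of the 6 directions on each of the 19 chromosomes. The lead was narrow on some: 10 regions against up to 9 on chromosome 19, and 18 against up to 17 on chromosome 16. The median gap from one member to the next on its chromosome was 2297660 bp.

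Few members were grouped. Within 10 kb of another member lay 24 members, or 4.15%, as 12 pairs on chromosomes 3, 4, 5, 6, 7, 11 and 13, with 619 to 8530 bp between the 2 regions of a pair. In the other 5 directions 0, 0, 0, 2 and 0 regions lay so close. Because a longer list holds more pairs, the count was also set against the neighbours at hand. A neighbour was counted once for each member it lay near. Of 530 neighbours within 10 kb that could pass, 4.53% were members, against 1.84% of all regions that could. Within 100 kb, 2.81% of 3919 neighbours were members. In the other directions 0.164% to 0.635% of neighbours within 100 kb passed, where 0.34% to 0.838% of all regions did. The share of neighbours was also above that of all regions for WT over KO (0.517% against 0.340%, on 4 passing neighbours). For replicate 2 over replicate 1 it was slightly above (0.626% against 0.565%, on 8), and in the remaining directions it was below. The grouping depended on the scaling: with total scaling 2 of the 327 passing regions lay within 10 kb of another, and with cyclic loess 6 of 345.

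The regions of a pair were close in level in some pairs and far apart in others. On chromosome 13, 9555702 to 9556166 had 1.62 and 1.99 RPKM in WT and 4.23 and 5.96 RPKM in KO, and 9559632 to 9560011 had 4.87 and 8.30 RPKM in WT and 14.6 and 12.7 RPKM in KO. On chromosome 6, 134252015 to 134252327 had 2.19 and 3.26 RPKM in WT and 7.05 and 5.91 RPKM in KO, and 134254580 to 134254960 had 2.34 and 2.92 RPKM in WT and 7.18 and 5.39 RPKM in KO. These 2 regions of chromosome 6, 2252 bp apart, had nearly equal ratios of 1.82 and 1.79. Of the 12 pairs, this was the only one left with total scaling.

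On chromosome 3, the closest pair lay 619 bp apart. Its region at 97749485 to 97749797 had 3.29 and 4.35 RPKM in WT and 7.97 and 8.21 RPKM in KO, and that at 97750417 to 97750858 had 1.32 and 3.01 RPKM in WT and 4.88 and 6.28 RPKM in KO. Chromosome 5 held 3 pairs. In the pair of highest ratio there, 24244977 to 24245289 had 1.21 and 3.56 RPKM in WT and 5.83 and 6.24 RPKM in KO, and 24252831 to 24253205 had 2.01 and 1.90 RPKM in WT and 5.56 and 4.66 RPKM in KO. A second pair held 104281758 to 104282147, with 3.17 and 3.57 RPKM in WT and 9.35 and 6.19 RPKM in KO, and 104285296 to 104285686, with 2.02 and 3.80 RPKM in WT and 6.81 and 8.67 RPKM in KO. The third included a region of high mean, 75774700 to 75775446, with 9.08 and 14.1 RPKM in WT and 21.9 and 22.3 RPKM in KO. Its partner at 75783977 to 75784858 was lower, with 2.76 and 3.05 RPKM in WT and 6.30 and 6.22 RPKM in KO.

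Over 1-Mb bins, counted after the values were seen, 5 bins held 4 or more members. The most, 6, lay on chromosome 2 from 68 to 69 Mb, among 45 regions that could pass, and on chromosome 7 from 28 to 29 Mb, among 38. On chromosome 6, the bins from 66 to 67 Mb and from 134 to 135 Mb held 5 each, among 20 and 60 regions that could pass, and the bin from 9 to 10 Mb of chromosome 13 held 4 among 28. No bin held more than 4 passing regions in the other 5 directions, whose lists are shorter. With total scaling the 5 bins kept 3 and 1 (chromosomes 2 and 7), 3 and 5 (chromosome 6) and 2 (chromosome 13).

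The bin of chromosome 6 from 66 to 67 Mb had the highest share, 5 of 20. Its member at 66444641 to 66445483 had 1.38 and 1.58 RPKM in WT and 4.83 and 4.26 RPKM in KO, a ratio of 2.40. That at 66798441 to 66799653, 1213 bp wide, had 2.71 and 3.46 RPKM in WT and 7.50 and 6.76 RPKM in KO. The regions at 66860317 to 66861602 and 66862556 to 66862940, 953 bp apart, had 5.58 and 11.5 RPKM in Flicr KO replicate 2 and 3.17 and 4.42 RPKM in Flicr WT replicate 2. Of the 15 regions of this bin that could pass and did not, 13 had a higher mean scaled value in KO, with a median log2 ratio of 0.37. In the other 4 bins this median was 0.28 (chromosome 2), 0.22 (chromosome 13), 0.19 (chromosome 7) and 0.16 (chromosome 6, 134 to 135 Mb). Over all 30907 regions that could pass and did not, 68.4% were higher in KO, with a median of 0.13.

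Regions near a member leaned toward KO slightly more than regions elsewhere. In the counts by distance, a region was counted once for each passing region it lay near. Of 92 regions within 2 kb of a member that could pass and did not, 78.3% had a higher mean scaled value in KO, and their median log2 ratio was 0.23, which is 0.10 above that of all regions that did not pass. This was not tested. At 2 to 5 kb the median was also 0.23 (177 regions), at 5 to 10 kb 0.18 (237 regions), and at 50 to 100 kb 0.15 (1687 regions). In the other 5 directions, the neighbours within 2 kb deviated from their own background by −0.03 to 0.12 on 29 to 52 regions, and those at 2 to 5 kb by −0.04 to 0.05. One of them, Flicr KO replicate 1 with Flicr WT replicate 2 over the others, thus had as large a deviation within 2 kb and was at −0.04 at 2 to 5 kb. Regions this close can share read pairs, and the part of this in the result was not tested.

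**Figure D5:**
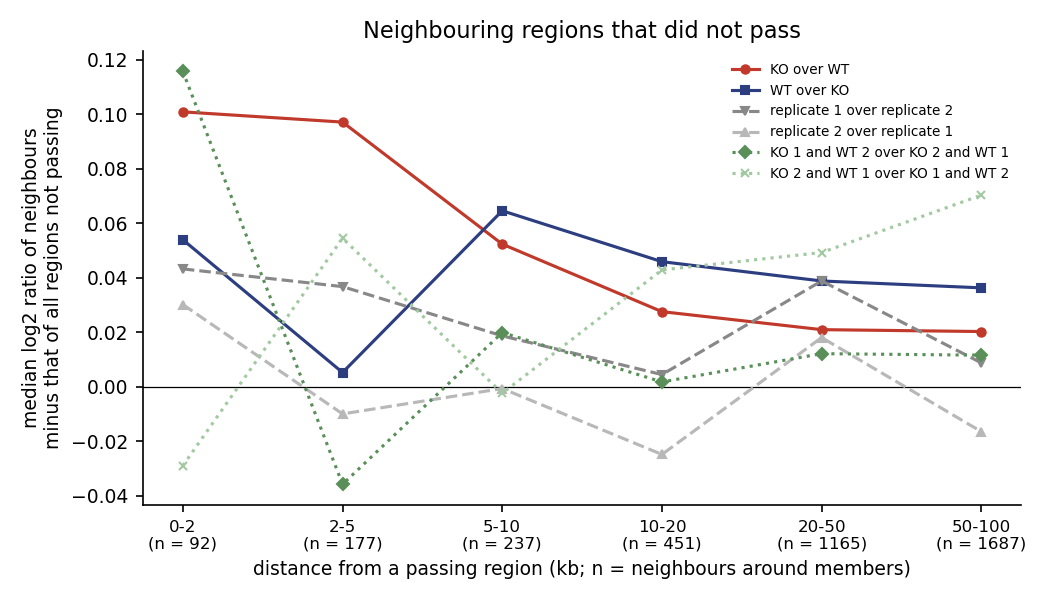
Median log2 ratio of the neighbouring regions that could pass and did not, minus the median over all such regions, by distance from a passing region, for the 6 directions (n below the axis is for KO over WT). A neighbour is counted once for each passing region it lies near. Around members it is 0.10 within 5 kb and 0.02 beyond 20 kb, and the other directions scatter between −0.04 and 0.12.

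The number of other regions around a member was ordinary. The median member had 8 other regions of the series within 50 kb, and the regions that could pass had 9. The nearest other region lay at a median of 3020 bp from a member and 2202 bp from the regions that could pass. The sign of this difference varied with width. The medians were 4926 bp for members and 5081 bp for all that could pass at 251 bp, 3020 and 3181 bp at 252 to 399 bp, 2939 and 2122 bp at 400 to 599 bp, and 2192 and 1882 bp at 600 to 799 bp. At 800 to 999 bp, with only 14 members, they were 470.5 and 1899 bp, and at 1000 to 1999 bp, with 27 members, 1649 and 1686 bp.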

How the data were processed

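The authors deposited 1 value per region and library in RPKM, per the file headers, for the same 84476 regions in 2 Flicr KO and 2 Flicr WT libraries. Per the submitters' processing notes, the tools were DiffBind, HOMER 4.6, Picard 1.130, Bowtie2 and SAMtools, on mm9, with no role given. Region calling, read shifting and duplicate handling are not given in the sources used here. Paired-end reads came from a 75-bp kit, per the labels' protocols. Values times region length less 1 were whole multiples of 1 step (tolerance 0.001 reads) in 100% of cases, which gave the reads. A region listed at 1 read may have held 0.

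Each library was divided by its median, and the rule was applied on chromosomes 1 to 19. A gap is the number of bases between 2 regions. Limma 3.58.1 (R 4.3.3, trend and robust options) was fitted on log2(scaled RPKM + 1), with values brought back to the mean of the library medians. It covered the 80254 regions with a mean at or above the 5th percentile (1.01 RPKM), with Benjamini-Hochberg adjustment. Folds on this scale understate the change of low regions. The fit was also run on simulated reads as a check of the code. These had the same setting of spread in every region, so the check does not bear on the spread in these libraries. Python 3.11.15, numpy 2.4.6, pandas 2.3.3, scipy 1.17.1 and matplotlib 3.10.9 were used. Coordinates are mm9 and count from 1. The interval of a median width comes from order statistics over regions and does not measure the spread between libraries.

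The members were chosen with earlier results of these data known. Regions named were the 10 of highest ratio, 5 of highest mean, 3 widest, the 5 pairs within 10 kb holding the highest ratios, and those at the edges of the rule. Regions of the 1-Mb bins were named after their values were seen. Cyclic loess, the median of the regions that could pass, and the scalings at ratios of 2 and 3 were chosen after seeing the data.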

Additional observations from a re-analysis of the deposited data

How the results depend on the processing

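The count of 578 regions became 1175 on RPKM as deposited, 327 with total scaling, 356 with 75th percentile scaling, 371 with quantile normalization, 345 with cyclic loess, 328 with the median of the regions that could pass, and 319 with 1 RPKM added. It was 2085 at the lower ratio tried, 79 at 2, 3151 at a mean of 1, 206 at 5, 3366 with no floor, and 597 with chromosome X. Leaving out a library gave 1525 (without Flicr KO replicate 2) to 2873 (without Flicr WT replicate 2), where fewer values had to meet the ratio and the mean was taken over the remaining libraries. KO over WT had the highest count of the 6 directions in each of these settings with all libraries except no floor. At a mean of 1 it did not at ratios of 2 and 3. The median width of 377 bp was 384 bp as deposited, 314 bp at a ratio of 2, 251 bp with no floor, and 379 to 389 bp without a library. The 24 members within 10 kb of another were 53 as deposited, 2 with total scaling, 0 at a ratio of 2, 8 at a mean of 5, 357 with no floor, and 86 to 329 without a library. There were 6 within 1 kb and 92 within 100 kb.

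Limma's 0 regions higher became 15 as deposited, 20 with voom, and 0 to 262 without a library. Its 0 lower became 12 with voom and 0 to 9 without a library. Each such fit left 1 library alone, assumed to vary like the other group. With the replicate number as a block, 28 were higher and 0 lower. Whether the replicate numbers pair the samples is not known here. The correlation of replicate deviations between KO and WT was 0.011 over all regions. It cannot decide this, as the median region held only 20 to 43 reads per library. The cause of these changes was not tested.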

Other observations

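Chromosome X, which carries Flicr and lies outside the rule, held 851 regions with a mean RPKM of 3 or more, and 19 of them, or 2.23%, met the same ratio. This share lay inside the range of the 19 autosomes, 1.05% to 2.30%.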
